A study of Danio rerio with 49 samples.

Results

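G1-phase DNA of zebrafish (Danio rerio) embryos that lack a working rif1 gene was compared between 24 hpf (hours post fertilisation) and Bud, the stage that ends gastrulation at 10 hpf. The members were the 8 libraries labelled as G1 DNA of the rif1 mutant at these stages, 4 from 24 hpf and 4 from Bud, out of 49 libraries in the series. All embryos of this comparison were of the Tab5 strain and homozygous for the omf201 allele of rif1. Other libraries served beside them: 8 omf201 S-phase libraries (4 from 24 hpf, 4 from Bud), 8 wild-type (WT) G1 libraries of the same strain and stages, and, at a few loci, the rest of the series. Nuclei from pools of embryos were stained with propidium iodide and sorted by DNA content, so the G1 fraction was defined by a gate and a library averages over every cell type of the embryo. The labels' protocol names a different sorter for each stage (a FACSAria IIIu for the later one, a BD LSRII for Bud), and its sorting sentence gives the later age as 28hpf where the sample labels say 24hpf. Nothing in the labels says whether replicates were separate pools, and p-values below therefore measure only the spread between these samples, which may be technical.

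A diploid nucleus in G1 is expected to hold the same number of copies of every sequence, which is why G1 DNA serves as the denominator when replication timing is read from S-phase DNA. Rif1 recruits protein phosphatase 1 to chromatin, where it counters the kinase that fires replication origins, and in vertebrate cells its loss disturbs the order in which early and late regions replicate. Zebrafish embryos start development with very short cycles and acquire a more marked timing programme as cycles lengthen. The questions asked of the omf201 G1 libraries were whether relative copy number differed between the stages anywhere in the genome, and whether any difference followed the order in which omf201 S phase replicates.

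The measurement was the read count in each of 120082 windows of about 60 kb that step by 10 kb along 25 chromosomes. Over the 17657 windows that do not overlap, the 24 hpf libraries averaged 1192, 1293, 1277 and 1349 counts per window (replicates 1 to 4), and the Bud libraries 694, 421, 492 and 411. The totals ran up to 23.8 M counts at 24 hpf and down to 7.25 M at Bud. The depths of the stages do not overlap, and depth, sorter and stage cannot be told apart in this design. The counting error of an average window was 2.72% to 2.90% at 24 hpf and 3.795% to 4.93% at Bud. Libraries thinned to 7.25 M counts differed by 1.58 to 2.86 times the variance expected from counting between stages (chi-square per degree of freedom, median 1.98 over 16 pairs), by 1.38 to 2.20 times among 24 hpf replicates (median 1.82, 6 pairs) and by 1.29 to 2.28 times among Bud replicates (median 1.55, 6 pairs). No pair of replicates agreed within counting error, so none was treated as one library deposited under separate names.

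Most of the omf201 genome had the same relative G1 count at both stages to within a few percent. Of 120082 windows, 301 (0.251%) passed edgeR's quasi-likelihood test at a Benjamini-Hochberg adjusted p under 0.05; 184 (0.153%) were higher at 24 hpf and 117 (0.0974%) were lower. The median size of the log2 difference was 0.033 over all windows and 0.21 over the windows that passed. Without adjustment, 12168 windows (10.1%) had p under 0.05. DESeq2 called 256 windows (0.213%), 169 of them higher at 24 hpf (0.141%) and 87 lower (0.0725%). S-phase DNA of the same genotype differed far more widely between the stages by the same test, with 46080 windows called (38.4%), 25286 higher at 24 hpf (21.1%) and 20794 lower (17.3%). Without Bud replicate 1, 2, 3 or 4 the G1 count of calls was 144, 187, 144 or 171, and without 1 of the 24 hpf replicates it lay between 217 and 411.

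Called windows were joined into runs of at least 3 windows of one direction with starts within 30 kb of each other. This gave 28 runs higher at 24 hpf on 19 chromosomes, with log2 differences of 0.17 to 1.26, and 14 runs lower at 24 hpf on 12 chromosomes, with differences of -0.33 to -0.17. The runs were short, 80 to 140 kb. Genome coordinates below are those of the deposited tables, on GRCz11; genes at these positions are not analysed here. The runs were chosen because their windows were called, so their G1 values are descriptions.

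Of the 28 higher runs, 21 had one shape: exactly 6 consecutive windows, stepping by 10 kb, were called and the windows on either side were not. Windows of 60 kb placed this way share a single stretch of 10 kb. At all 21 loci each of the 6 windows differed more between the stages than any of the flanking windows, up to 3 on each side. The loci were chosen from these same libraries for called windows beside uncalled ones. The choice itself favours this contrast, which is a description and not a test. The mean difference in relative count, 24 hpf minus Bud, was 0.137 or more in the 6 windows and -0.045 to 0.071 in the flanks. The flanks were closest to the locus on chromosome 8, at 0.071 against 0.184 in its 6 windows. These 21 narrow loci lay on 16 chromosomes. The largest fold was at chr14:37200000-37210001. Its 6 windows (chr14:37150000-37260001) had relative counts, as multiples of the library's mean window, of 2.16, 2.25, 2.46 and 2.22 in the 24 hpf libraries, against 0.883, 1.01, 1.02 and 0.879 in the Bud libraries. All 4 libraries of 24 hpf stood far above all 4 Bud libraries, which were near or below the genome average. The fitted difference was 2.40-fold. Averaged over the 24 hpf libraries, each of the 6 windows lay between 2.23 and 2.30, and the adjacent window on each side was at 0.966 and 1.01.

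**Figure D1:**
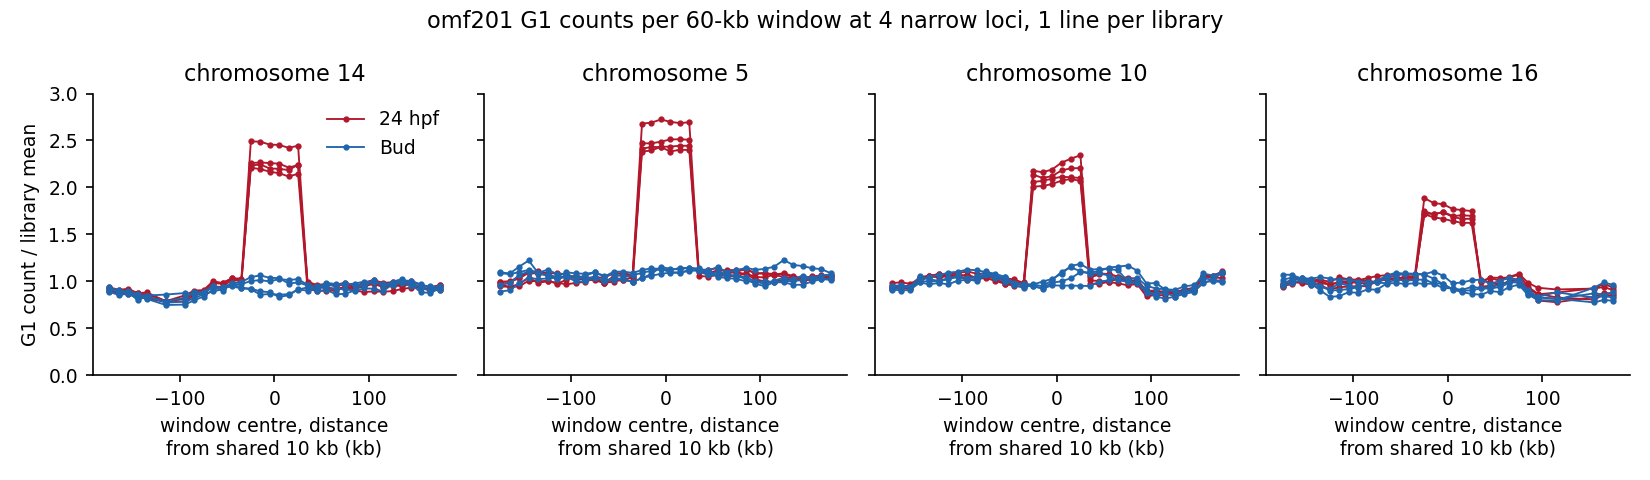
Relative G1 count (multiples of the library's mean window) in omf201 libraries against the distance of each 60-kb window's centre from the middle of the shared 10 kb, in kb, at the 4 loci with the largest difference; each line is 1 library, 24 hpf in red and Bud in blue. The 24 hpf lines rise in exactly 6 windows and lie with the Bud lines outside them.

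Similar steps were seen on chromosomes 5, 10 and 16. At chr5:37640000-37650001 the 6 windows averaged 2.50 ± 0.13 in 24 hpf libraries and 1.11 ± 0.02 in Bud libraries (SD, n = 4 each), a 2.26-fold difference. The windows around chr10:28160000-28170001 averaged 2.13 ± 0.08 at 24 hpf and 1.01 ± 0.05 at Bud, a 2.11-fold difference. The windows around chr16:34660000-34670001 averaged 1.72 ± 0.06 at 24 hpf and 0.97 ± 0.05 at Bud, a 1.78-fold difference, and those around chr17:29720000-29730001 averaged 1.44 ± 0.06 at 24 hpf and 0.96 ± 0.03 at Bud, a 1.50-fold difference. In each of these 4 places the lowest 24 hpf library was above the highest Bud library. The smallest fold among the 21 loci was 1.14, on chromosome 2.

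Because a 60-kb window dilutes a 10-kb feature, the excess was also expressed per locus: the mean count of the 6 windows above that of 3 flanking windows on each side (4 in all at chr10:12570000-12580001 and 5 in all at chr23:40500000-40510001), in units of the library's mean count per 10 kb. On this scale the chromosome 5 locus carried an excess of 8.11, 8.60, 9.65 and 8.09 in the 24 hpf G1 libraries, against 0.231, 0.0497, 0.162 and 0.323 in the Bud G1 libraries. The chromosome 14 locus carried 7.24, 7.68, 8.85 and 7.37 at 24 hpf, against -0.311, 0.374, 0.514 and -0.381 at Bud. The stages are far apart at both loci. At Bud the excess was positive but small in all 4 libraries on chromosome 5, and 2 libraries were above and 2 below their flanks on chromosome 14. Locus means at 24 hpf ranged from 0.362 on chromosome 8 to 8.61 on chromosome 5.

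Summed over the 21 loci, the excess was 49.3, 52.6, 58.8 and 49.1 mean 10-kb counts in the 24 hpf omf201 G1 libraries, against 1.49, 0.904, 1.66 and 1.53 in the Bud omf201 G1 libraries. This sum was 0.0497% of all counts at 24 hpf. The excess was not limited to G1 DNA: S-phase DNA of omf201 summed to 39.6 ± 4.79 at 24 hpf and 0.497 ± 1.24 at Bud (SD, n = 4 each), libraries that had no part in choosing the loci. It was not limited to the mutant either, since WT G1 DNA summed to 70.5 ± 26.7 at 24 hpf and 2.09 ± 0.49 at Bud, and WT S-phase DNA to 44.2 ± 8.31 at 24 hpf and 1.52 at Bud (0.316 to 2.62). The WT G1 libraries of 24 hpf varied most, with 97.9, 86.9, 39.6 and 57.7, and the omf201 range lies inside theirs. Whole-embryo libraries of the stages before Bud, preMBT and Shield, had group means of 0.212 to 1.22. Over the whole series, the 16 libraries of 24 hpf held sums of 32.7 or more and the 33 others 2.62 or less. At 17 of the 21 loci every 24 hpf library exceeded every library of the other stages; the exceptions were on chromosomes 2, 8, 9 (the locus at 12030000) and 13.

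**Figure D2:**
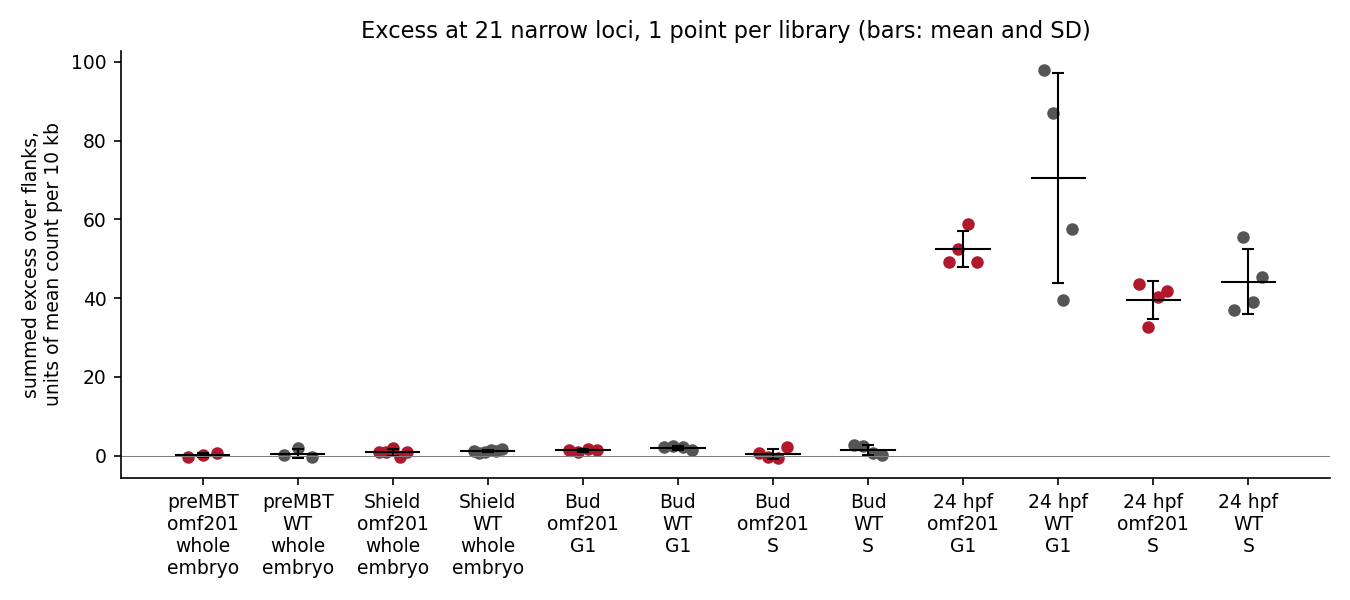
Summed excess at the 21 narrow loci, in units of the library's mean count per 10 kb, by stage, genotype and fraction; each point is 1 library and the bars give the mean and SD, omf201 in red and WT in grey. All 24 hpf groups stand at 32.7 or more, and every group of an earlier stage is near 0.

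The 4 tallest loci kept their proportions from library to library. The smaller loci were not scored this way. Of the excess carried by the 4 tallest loci together, the 24 hpf omf201 G1 libraries had 31.5% ± 0.14 on chromosome 5, 28.4% ± 0.50 on chromosome 14, 24.8% ± 0.65 on chromosome 10 and 15.3% ± 0.52 on chromosome 16 (SD, n = 4). Across all 16 libraries of 24 hpf, both genotypes and both fractions, the chromosome 5 share spanned 30.2% to 35.6%, the chromosome 14 share 26.1% to 29.4%, the chromosome 10 share 23.8% to 26.9% and the chromosome 16 share 13.0% to 17.2%. Libraries therefore differed in the height of the excess more than in its distribution over these loci: in WT G1 DNA the highest sum was 97.9 and the lowest 39.6.

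The deposited timing z-scores, made by the authors from S-phase over G1 counts, can be read at the same loci. Relative to windows 200 to 300 kb away on both sides, the median z-score difference over the 21 loci was 0.159 in 24 hpf omf201 S phase, with 13 loci above 0, and -0.467 in Bud omf201 S phase, with 16 loci below 0. How often other windows of the genome differ this way was not scored, so these counts have no background beside them. The chromosome 14 locus differed from those windows by -0.39 ± 0.14 at 24 hpf and -1.96 ± 0.31 at Bud (SD, n = 4 each). The Bud z-scores were locally low at 16 of the 21 loci, although the Bud excess in counts, summed over the 21 loci, was small. At the other loci they were locally high, by up to 0.498 at chr9:12030000-12040001. The cause was not tested.

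The other 7 higher runs held 3 to 5 called windows each, with folds of 1.13 to 1.17, against 1.14 or more at the narrow loci. The longest, chr7:4940000-5070001, had relative counts of 1.09, 1.09, 1.14 and 1.08 at 24 hpf, against 0.965, 0.958, 0.998 and 0.977 at Bud. The groups do not overlap, but fewer than 50% of its windows were called by DESeq2, in a fit of all 16 G1 libraries, or without any one of 7 of the 8 libraries (all but 24 hpf replicate 2). Over all 28 higher runs, 18 had at least 50% of their windows called higher in omf201 S-phase counts, and none had 50% called lower. Of the other 7 runs, only chr5:39910000-39990001 (3 of 3 windows) and chr15:14650000-14750001 (4 of 5) were among these 18. The rest of the 18 were narrow loci. Of all single windows 21.1% were called higher, which is a share of windows and not of runs. Over the single windows, 156 of the 184 higher ones (84.8%) had an S-phase difference of the same sign and 174 (94.6%) a WT G1 difference of the same sign. Over all windows these shares were 53.4% and 59.4%. Windows overlap, and each of the 21 narrow loci enters as 6 of the 184, so these are not shares of separate places.

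The 14 lower runs were small differences over 80 to 140 kb. The run with most called windows, chr24:9180000-9320001, had relative counts of 0.977, 0.945, 0.967 and 0.970 in the 24 hpf G1 libraries, against 1.10, 1.12, 1.13 and 1.10 in the Bud G1 libraries. The groups lie well apart, each within a few percent, and the fitted log2 difference was -0.21. At chr14:32620000-32750001 the values were 1.07, 1.01, 1.03 and 1.02 at 24 hpf, against 1.21, 1.17, 1.13 and 1.22 at Bud. In these runs the 24 hpf libraries were near the genome average and the Bud libraries were above it.

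In S-phase DNA several of these regions moved the opposite way. The chromosome 14 run averaged 1.40 ± 0.02 in 24 hpf S-phase libraries and 1.23 ± 0.02 in Bud S-phase libraries (SD, n = 4 each), with all 8 of its called windows called higher in S phase. The run at chr21:37170000-37310001 averaged 0.922 ± 0.022 at 24 hpf and 1.06 ± 0.01 at Bud in G1, but 1.25 ± 0.05 at 24 hpf and 1.10 ± 0.03 at Bud in S phase. At chr22:37340000-37450001 G1 counts averaged 0.957 ± 0.033 at 24 hpf and 1.10 ± 0.06 at Bud, and S-phase counts 1.26 ± 0.06 at 24 hpf and 1.17 ± 0.02 at Bud, with 3 of 6 windows called higher in S phase. By contrast, the run at chr3:6550000-6670001, the largest decrease, was low in both fractions. Its G1 counts were 0.867, 0.786, 0.713 and 0.903 at 24 hpf, against 0.965, 1.09, 1.14 and 0.930 at Bud, and its S-phase difference was -0.22 on the log2 scale. The groups nearly touched and each spread widely, and DESeq2 called none of these windows.

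Of the 14 lower runs, 6 had at least 50% of their windows called higher in S phase and 2 had 50% called lower. Of all single windows, 17.3% were called lower and 21.1% higher in S phase, which are shares of windows and not of runs. Among single windows, 50 of the 117 lower ones (42.7%) had an S-phase difference of the same sign, where 53.4% of all windows did; 20 were called lower in S phase and 44 were called higher. In WT G1 DNA all 14 lower runs had a negative mean difference, and 27 of the 28 higher runs a positive one. Of all single windows, 59.4% had the same sign in both genotypes, which is a share of windows and not of runs. The runs had not been chosen from WT libraries, but these share the sorters and depths of each stage with omf201. The lower runs rested more on single libraries than the narrow loci did. Without Bud replicate 1 or 3, 4 and 3 of the 14 lower runs still had 50% of their windows called. The count was 9 without Bud replicate 2, 7 without Bud replicate 4 and 9 without 24 hpf replicate 4. Of the 21 narrow loci, 18 or more did so without any one library.

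**Figure D3:**
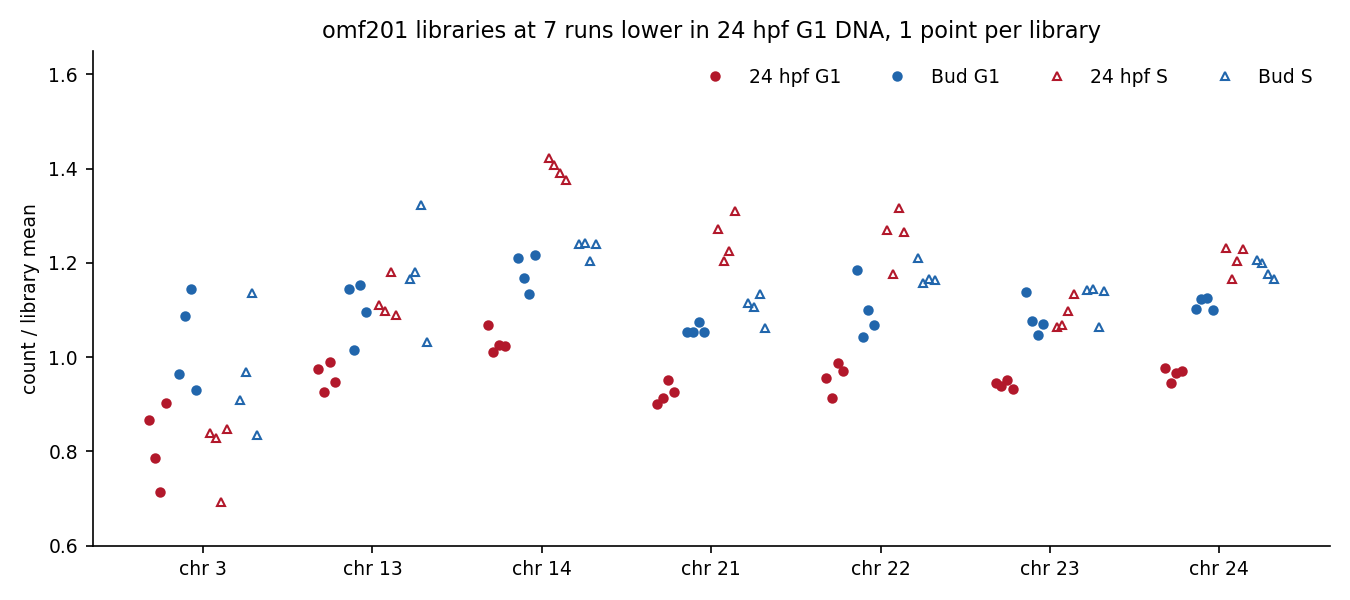
Relative count (multiples of the library's mean window) in omf201 libraries at the 7 named runs that were lower in 24 hpf G1 DNA, by chromosome; filled circles are G1 libraries and open triangles S-phase libraries, 24 hpf in red and Bud in blue, 1 point per library. In G1 the 24 hpf points lie below the Bud points at every run; in S phase they lie above them on chromosomes 14 and 21.

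The second question was whether the G1 difference followed S-phase order. S timing of a window was taken as the log2 ratio of omf201 S-phase counts to the median WT G1 count, so that no omf201 G1 library entered it, and each G1 library was then scored for how much more DNA it held in the earliest 20% than in the latest 20% of the 17657 windows. All 8 omf201 G1 libraries held more DNA in early than in late windows of this order. The order sets omf201 S-phase counts against WT G1 counts. Any difference in count between the genotypes can therefore enter both the order and this level, and its part in the level was not tested. When windows were ordered by Bud S timing, the early-minus-late difference was 0.0582, 0.0656, 0.0526 and 0.0577 (log2) in the 24 hpf G1 libraries, against 0.0904, 0.0905, 0.0901 and 0.101 in the Bud G1 libraries. The groups did not overlap. The difference of their means was -0.034, with an exact two-sided permutation p of 0.0286, the smallest that 4 against 4 allows. The adjusted p over the 4 tests of this kind was 0.0571, which does not pass 0.05. The slope described below had the same smallest p and the other tests had larger ones. An adjusted p of 0.0571 was then the lowest that this value could reach. In 1-Mb bins the difference was -0.016.

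When windows were ordered by 24 hpf S timing instead, the stages overlapped. The early-minus-late difference was 0.0753 ± 0.0039 at 24 hpf and 0.0817 ± 0.0080 at Bud (SD, n = 4 each), a difference of -0.0064 (exact permutation p = 0.229, adjusted p = 0.305), and -0.0024 in 1-Mb bins. With the deposited z-scores as the order, whose G1 counts include the libraries tested, that difference was -0.011 with an exact permutation p of 0.0286.

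The sharpest form of the question uses the change of S phase itself. Each window's S-phase change was the log2 S-phase count at 24 hpf minus that at Bud, in which no G1 library takes part. The S-phase and G1 libraries of a stage still share its sorter, and whether that enters the slope was not tested. The slope of G1 log2 count on this change was 0.140, 0.135, 0.140 and 0.137 in the 24 hpf G1 libraries, against 0.0821, 0.0754, 0.0545 and 0.0858 in the Bud G1 libraries. Every 24 hpf slope was above every Bud slope, and the mean difference was 0.064 log2 of G1 DNA per log2 of S-phase change (exact permutation p = 0.0286, adjusted p = 0.0571). The difference was positive in 25 of 25 chromosomes taken singly, from 0.0038 on chromosome 21 to 0.162 on chromosome 10. The chromosomes share the same libraries and are not independent replicates. The size of the mean difference depended on scale and on the called windows. It was 0.047 without windows called between the stages and 0.034 in 1-Mb bins (exact permutation p = 0.0571). It was 0.031 when the S-phase change of WT libraries took the place of the omf201 change.

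**Figure D4:**
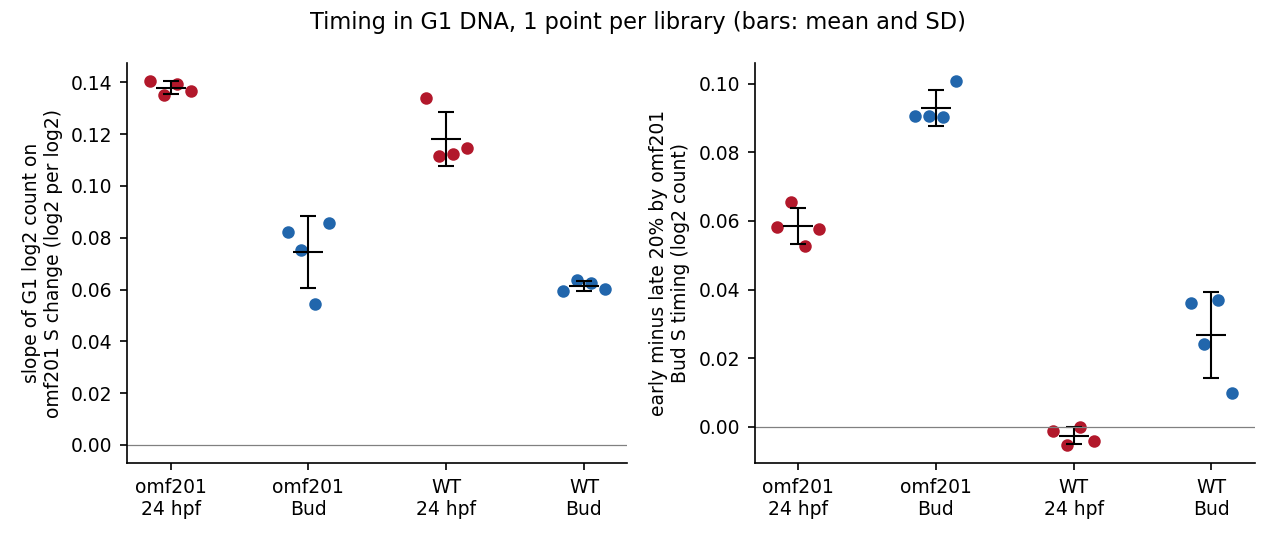
Left, slope of G1 log2 count on the omf201 S-phase change (log2 per log2); right, early-minus-late value of G1 log2 count by omf201 Bud S timing; each point is 1 G1 library and bars give the mean and SD of 4. In omf201 the 24 hpf slopes lie above, and the 24 hpf early-minus-late values below, all Bud values.

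With windows cut into classes of 20%, the G1 differences were small next to the S-phase differences. Over the 5 classes of the S-phase change, lowest to highest, the mean G1 log2 difference, 24 hpf minus Bud, was -0.0132, -0.0005, 0.0045, 0.0063 and 0.0047. The lowest class stood apart in one direction and the upper 3 classes in the other, with the highest class no higher than its neighbour. Over the 5 classes of Bud S timing, latest to earliest, the difference was 0.0142, 0.0078, 0.0035, -0.0034 and -0.0202. The stages did not overlap in 4 of these 5 classes; the exception was the class next to the earliest. By 24 hpf S timing, latest to earliest, the difference was -0.0014, 0.0025, 0.0055, 0.0029 and -0.0078. The stages again did not overlap in 4 of 5 classes, all but the latest. In the class next to the latest they nearly touched, with the lowest 24 hpf library at 0.000168 and the highest Bud library at 6.14e-05. In the class next to the earliest these values were 0.000324 and 2.33e-05 (log2 deviations from the mean of the libraries). All classes come from the same libraries and carry no test of their own.

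**Figure D5:**
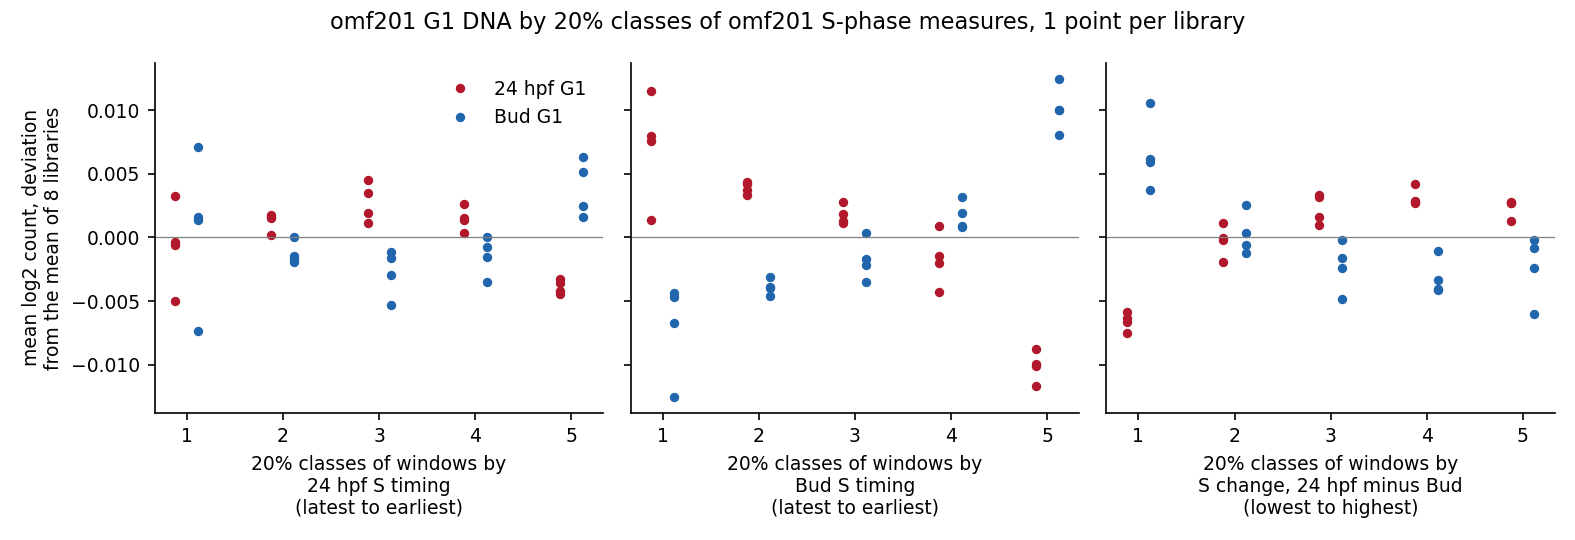
Mean G1 log2 count of each omf201 library in 5 classes of 20% of windows, as the deviation from the mean of the 8 libraries, with windows ordered by 24 hpf S timing (left), Bud S timing (middle) and S-phase change (right); 24 hpf in red, Bud in blue. By Bud S timing the latest class is higher and the earliest class lower in 24 hpf libraries. By 24 hpf S timing the stages also do not overlap in 4 of 5 classes, the latest being the exception. They nearly touch in the classes next to the latest and next to the earliest.

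With both timings as predictors in one least-squares fit per library, the G1 libraries of each stage had the steeper slope on the timing of their own stage. The slope on 24 hpf timing was 0.135 ± 0.003 in the 24 hpf G1 libraries and 0.070 ± 0.014 in the Bud G1 libraries, and the slope on Bud timing was 0.034 ± 0.022 in the 24 hpf G1 libraries and 0.207 ± 0.014 in the Bud G1 libraries (SD, n = 4 each). Neither slope overlapped between the stages. These slopes carry no test of their own, and the G1 and S-phase libraries of a stage share its sorter. Both timings have WT G1 counts as the denominator, so differences in count between the genotypes can enter the level of each slope.

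Across 1313 bins of 1 Mb, the G1 difference had an SD of 0.024 on the log2 scale, of which counting error would give 0.011, and the S-phase difference an SD of 0.096. The correlation of the G1 and S-phase differences over bins was Pearson's r = 0.136 (Spearman's rho = 0.107), and over single windows that do not overlap r = 0.153; bins and windows of one genome share libraries and are not independent replicates. For the spread of S over G1 across bins, the choice of G1 denominator moved the group mean by less than the replicate SD. The SD over bins of log2 S over G1 was 0.136 ± 0.003 in the 24 hpf S libraries and 0.0730 ± 0.0034 in the Bud S libraries with G1 DNA of the same stage. It was 0.135 ± 0.003 in the 24 hpf S libraries and 0.0758 ± 0.0035 in the Bud S libraries with all 8 omf201 G1 libraries pooled (SD, n = 4 each). The same S libraries enter both versions, and the move had one sign within each stage. With G1 DNA of the same stage the value was higher in all 4 S libraries of 24 hpf. It was lower in all 4 S libraries of Bud. Bins of 1 Mb cannot resolve the narrow loci.

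No chromosome passed the adjusted threshold as a whole, but this test could hardly have called one. The exact permutation p of 4 against 4 libraries cannot go below 0.0286. A few chromosomes at that floor cannot pass adjustment over 25, so no conclusion is drawn from the adjusted values. Chromosome means differed between the stages by -0.018 to 0.0083 on the log2 scale. Chromosome 5 (difference 0.0048) and chromosome 25 (-0.010) did not overlap between the groups, 2 of 25 chromosomes, and the lowest adjusted exact permutation p over the 25 was 0.357. The lowest value, on chromosome 21, came with 1 Bud library apart from the others: chromosome 21 had mean log2 counts of 0.0049, 0.0060, -0.0018 and 0.0082 at 24 hpf, against 0.0172, 0.0061, 0.0604 and 0.0071 at Bud. Chromosome 4 carries a long arm that is full of repeats and replicates late in zebrafish. This arm, taken as windows starting at or after 28000000, had mean log2 counts of -0.077, -0.037, -0.0076 and -0.040 at 24 hpf, against -0.051, -0.054, -0.070 and -0.044 at Bud. The groups overlap, and the difference was 0.014 (exact permutation p = 0.371, adjusted p = 0.371); with windows of exactly 60 kb alone it was -0.0097.

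The WT G1 libraries of the same stages show how far the stage difference depended on genotype. By the same test 567 windows (0.472%) were called in WT, 230 higher at 24 hpf (0.192%) and 337 lower (0.281%). Of the windows higher at 24 hpf, 131 were called in both genotypes, which is 71.2% of the omf201 calls and 57.0% of the WT calls. A narrow locus can enter this overlap as up to 6 windows, so these are not separate places. Of those lower, 19 were shared, which is 16.2% of the omf201 calls and 5.64% of the WT calls. Called or not in WT, 109 of the 117 lower omf201 windows (93.2%) had a WT G1 difference of the same sign, where 59.4% of all windows did. The difference between genotypes was tested as the genotype-by-stage interaction over all 16 G1 libraries, and 1 window of 120082 (0.000833%) passed at an adjusted p of 0.0282 by edgeR. In that window, chr7:7870000-7970001, the stage difference was 0.095 in omf201 and -0.48 in WT (log2). At an unadjusted p under 0.05 by edgeR there were 5897 such windows (4.91%). That is near the share expected to pass this threshold when no window differs. DESeq2 called 3 windows, all with a negative interaction, so it did not call chr7:7870000-7970001, where the interaction was positive. The edgeR count was 0 without 24 hpf replicate 2, Bud replicate 1 or Bud replicate 3 of omf201. It was 5 without 24 hpf replicate 3, Bud replicate 2 or Bud replicate 4, and 6 without 24 hpf replicate 1.

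The timing values led to the same comparison. In WT, the early-minus-late value by omf201 Bud timing was -0.0026 ± 0.0025 at 24 hpf and 0.027 ± 0.013 at Bud (SD, n = 4 each), and the stage difference was -0.034 in omf201 and -0.029 in WT. The slope on the S-phase change was 0.118 ± 0.011 at 24 hpf and 0.061 ± 0.002 at Bud in WT, a difference of 0.064 in omf201 and 0.057 in WT. The exact permutation p of the difference between genotypes was 0.824 for the early-minus-late value and 0.602 for the slope, and 0.933 after adjustment over 4 tests for both. This permutation shuffled genotype within each stage, so a gap in level between the genotypes also widens the spread it expects. By Bud timing the omf201 level was 0.0585 at 24 hpf and 0.0929 at Bud, far above WT at both stages. These p-values therefore cannot decide whether the stage difference depended on genotype. WT G1 counts are the denominator of the timing that orders the windows, so the WT early-minus-late levels are not independent of that order. Over 1-Mb bins, the omf201 and WT G1 differences correlated with r = 0.564 (rho = 0.517, 1313 bins of one genome), a description over libraries that share no sample between genotypes but share the sorters and depths of each stage.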

How the data were processed

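Per the submitters' processing notes, the authors processed reads with RepliTimer v1.0.11, fastp, BWA and Picard on GRCz11; the labels' protocols name KAPA Hyper Prep libraries. The authors deposited raw counts per window and library, and a timing score (z-score) per window. The counts were tested as deposited in R 4.3.3 with edgeR 4.0.16 (TMM, quasi-likelihood, Benjamini-Hochberg over 120082 windows, called at an adjusted p under 0.05, no low-count filter), with DESeq2 1.42.0 and limma 3.58.1 as alternatives. The edgeR test was run on simulated counts, drawn separately for each window, with 50 windows changed at each size. It recovered 10% of those changed by 0.1 log2, 76% at 0.2, and 100% at 0.4 and at 0.8. Among the unchanged windows of the 120082 it made 14 false calls, a larger share of all its calls than the threshold of 0.05 aims at. Real windows overlap their neighbours, so this simulation does not speak to runs of called windows. Timing values were computed per library from mean-scaled log2 counts of 17657 windows that do not overlap and compared by exact permutation of the 8 libraries (two-sided, 4 tests adjusted together). Named runs were the 5 longest and the 5 largest in each direction, 13 in all. Members, lists and runs were chosen with earlier results of these data known. Same-numbered replicates of the stages deviated together with r = 0.010, 0.085, 0.111 and 0.063, all positive. Different-numbered replicates had r from -0.126 to 0.109. The same-numbered values were not all above 0.1, so numbers were not taken to pair samples. Pairing is not excluded by this. Intervals and errors from counts cover counting error only. Deposited log2 ratios and smoothed profiles were not used here; GC content and genes at GRCz11 positions were not analysed here.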

Additional observations from a re-analysis of the deposited data

Results flagged for a closer look

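In the early-minus-late value by omf201 Bud S timing, Bud G1 replicate 4 stood apart from its group at 0.101, with the other 3 Bud libraries between 0.0901 and 0.0905; it is the shallowest of the 8 libraries, at 7.25 M counts. At the run chr21:37170000-37310001, Bud G1 replicate 3 had a relative count of 1.07, with its 3 neighbours between 1.053 and 1.054. These 2 were found in 36 groups tested, where chance flags about 5% of groups. The stage difference in G1 DNA differed between omf201 and WT in 1 window by edgeR's interaction test, given above. DESeq2 did not call this window. Outside omf201 G1 DNA, the summed excess at the narrow loci at 24 hpf was 39.6 in omf201 S-phase libraries, 70.5 in WT G1 libraries and 44.2 in WT S-phase libraries, each above its Bud group; the cause was not tested.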

How the results depend on the processing

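Of the count of 301 called windows, 250 were called by DESeq2 too, and the count stayed within 1.5 times under 11 of 18 alternatives. It was 29 of 17657 windows that do not overlap, 25 of those after thinning every library to the shallowest, where fewer windows were tested, and 144 to 411 without one library. Higher windows made up 61.1% of the calls, but 71.4% with limma, 80.0% after thinning, 47.2% with windows of exactly 60 kb, 50.5% with all 16 G1 libraries in one fit and 47.7% with the replicate block. Whether replicate numbers pair the samples was not settled. With replicate number as a block 671 windows were called, including all 301, and the interaction gave 6. The interaction count was 3 with library size alone, 3 with DESeq2 and 0 to 6 without one library. It was 0 in windows that do not overlap, where 892 of 17657 had an unadjusted p under 0.05 by edgeR. Without one library the early-minus-late difference was -0.0093 to -0.0029 by 24 hpf timing and -0.0368 to -0.0318 by Bud timing, the slope difference 0.0569 to 0.0673, the chromosome 4 arm 0.0034 to 0.0265, and 7 to 13 of the 13 named runs kept 50% of their windows called; with 4 against 3 libraries no exact p can go below 0.0571. The sign-flip test of same-numbered pairs (replicate block) left the Bud-timing value at -0.034 and the slope at 0.064, with an exact p = 0.125, the smallest it can give. The 24 hpf-timing value was -0.0109 with deposited z-scores (exact p = 0.0286), the slope was 0.0342 in 1-Mb bins, and the chromosome 4 arm turned to -0.0097 with windows of exactly 60 kb; the cause was not tested. The values without called windows and with the WT S-phase change were alternatives chosen after seeing the data. A minimum mean count of 100 removed no window. The GC alternative was not run. The counting error per window was 2.72% to 2.90% in the 24 hpf libraries and 3.795% to 4.93% in the Bud libraries, which limits how small a difference can be seen.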
